A study of Mus musculus with 16 samples.

Results

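The 9 genes described are Foxc2, Gata2, Itga9, Gja1, Gja4, Cldn11, Piezo1, Klf2 and Klf4, which mark lymphatic valves or respond to lymph flow. They were chosen by gene symbol from what is known of lymphatic valves, with earlier results of these data known. All 9 of 9 were found among the 15895 genes of the table. RNA sequencing had been done on lymphatic endothelial cells sorted from CD1 mouse hearts, as cells without CD45 (the leukocyte antigen) that carried CD31 (an endothelial antigen) and podoplanin (a lymphatic one). The surgery was a myocardial infarction (MI, by ligating a coronary artery) or a sham operation without it, at postnatal day 56 (P56) or postnatal day 1 (P1), and hearts were collected 3 days later. The 4 groups were MI P56, sham P56, MI P1 and sham P1, with 4 libraries each. The P1 surgery serves as a model of a heart that regenerates and the P56 surgery as one that scars. The labels name no transgene or mutation in any group. Adult animals were males whose hearts were digested by perfusion for about 8 minutes. Neonatal ventricles were pooled in groups of 6, cut up and digested for 30 to 40 minutes. Age therefore cannot be told apart from digestion, pooling, the form of surgery and, if the neonates were not all male, sex. The labels do not say how pools or animals relate to libraries, so the p-values measure the spread between libraries, which may be technical.

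Lymphatic valves are leaflets of endothelium on a matrix core that keep lymph from flowing backward. Endothelial cells sense the flow through channels and junctions. Oscillating flow switches on the transcription factors that build and keep the valve. Steady flow acts through a kinase cascade that induces Klf2 and Klf4, a pair of zinc-finger factors.

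The values below are in the deposited unit, which the authors named CPM although the columns summed to between 297624 and 177049106. In 3 libraries (MI P56 library 5 and sham P1 libraries 1 and 2) only 7746 to 9451 genes had a read, and up to 99.8% of the reads fell on the single gene Uqcrc1. In MI P56 library 5 and sham P1 library 2, 3 reads were worth 12.9 and 12.1, more than Foxc2, Gja4 or Cldn11 reached in any other library that was kept. The main values therefore come from the other 13 libraries (3 MI P56, 4 sham P56, 4 MI P1 and 2 sham P1), which held 17103319 to 26904599 reads each and a read on 14121 to 15821 genes. Of these, sham P1 library 5 had 47.3% of its reads on Uqcrc1, more than the 18.1% in sham P1 library 1, which was not fitted, but it had a read on 15549 genes. Values from the fit of all 16 libraries are given beside the calls and counts. The 6 lymphatic markers in the table (Prox1, Lyve1, Flt4, Pdpn, Reln and Mmrn1) were detected in all 4 groups, and their summed value ran from 979 to 2344 in MI P56, 1735 to 3065 in sham P56, 1563 to 2554 in MI P1 and 2019 to 2952 in sham P1. None of the 6 passed the test in any comparison. Cells of a rare type that become fewer and cells that hold less RNA of a gene cannot be told apart in such bulk samples, and valve cells are a small share of lymphatic endothelium.

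Divided by exon length, Klf4 had the highest mean value over the 13 libraries, at 19.3 per kb, and Itga9 followed at 13.9 per kb. Klf2 (6.52 per kb), Gja1 (4.93 per kb), Piezo1 (3.08 per kb) and Gja4 (2.15 per kb) came next. Gata2 (1.46 per kb), Foxc2 (1.11 per kb) and Cldn11 (0.649 per kb) were lowest. This order pools groups that differ: Gata2 (2.18 per kb) lay above Piezo1 (1.97) and Gja4 (1.52) in sham P56, and Gja1 lay above Klf2 in sham P1 (7.39 against 4.80 per kb). The order of the top pair depended on age: Itga9 led Klf4 in MI P56 (13.7 against 8.91 per kb) and in sham P56 (20.3 against 11.5 per kb), and Klf4 led Itga9 in MI P1 (32.3 against 9.78 per kb) and in sham P1 (24.8 against 9.82 per kb).

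**Figure D1:**
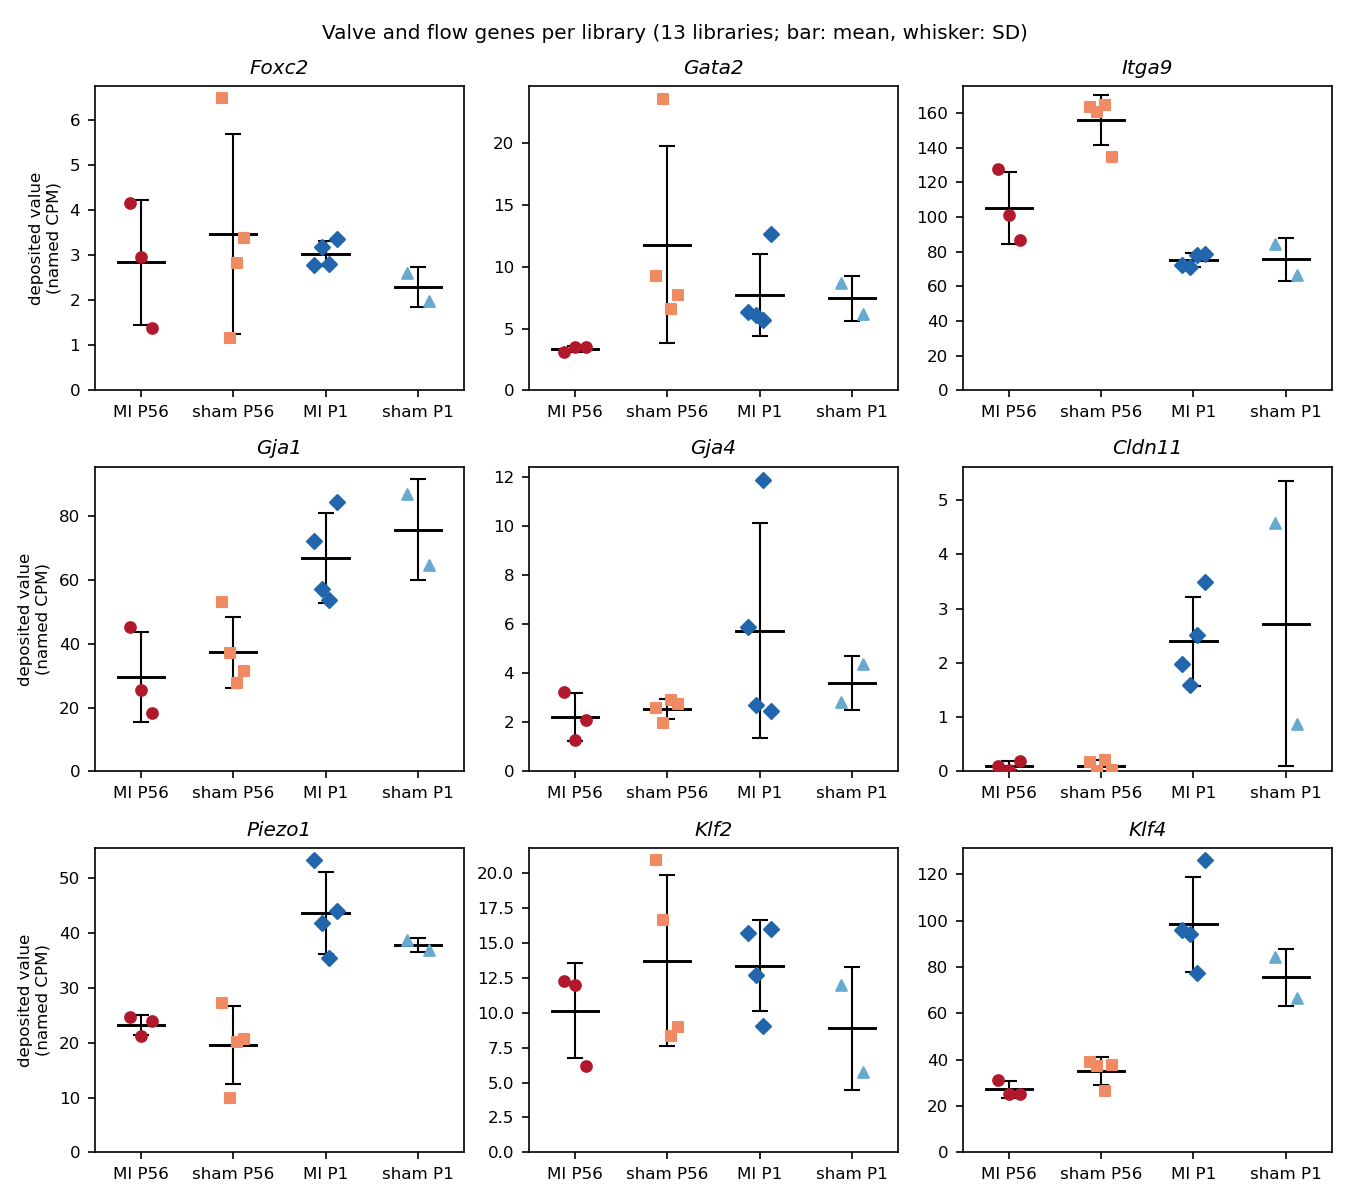
Deposited value of each of the 9 genes (vertical axis, from 0) in MI P56, sham P56, MI P1 and sham P1 libraries (points, 13 libraries), with the mean and SD of each group. Klf4, Piezo1, Gja1 and Cldn11 lie lower in all P56 libraries than in any P1 library, and Itga9 lies higher.

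The P56 and P1 libraries did not overlap for 5 of the 9 genes, where they did not overlap for 6.78% of all 13033 genes tested. In all 7 P56 libraries Itga9 was above its level in all 6 P1 libraries, while Gja1, Cldn11, Piezo1 and Klf4 were below theirs. Between sham groups, 5 of the 9 passed the test (1 higher and 4 lower in P56), where 13.2% of all 13033 genes tested did (1716 genes). Between the groups after MI, 3 of the 9 passed, all lower in P56, where 5.35% of all genes did (697 genes). These counts, and that of genes without overlap, include Cldn11. It met the filter on low values (1 or more in at least 4 libraries) only through P1 libraries, where it was higher. Without that filter the counts that passed were again 5 and 3 of the 9 (11.4% and 4.48% of all genes). At a minimum value of 5 in 4 libraries, which Foxc2, Gja4 and Cldn11 did not meet, they were 4 and 2 (18.5% and 8.13% of all genes). The tests are limma's on log2(value + 1) with Benjamini-Hochberg adjustment over all genes tested, two-sided, at 0.05. The sham and the MI age comparisons have no library in common, but they share the estimate of spread, and digestion and pooling differ in both. In the 2 comparisons 6 of the 9 genes had the same sign, and the share over all genes was not computed. In the fit of all 16 libraries 1 of the 9 passed between sham groups (3.91% of all genes) and 0 of the 9 after MI (0.106% of all genes). Without sham P1 library 3 the sham count was 1 (6.23% of all genes) and without sham P1 library 5 it was 2 (5% of all genes), each with a single sham P1 library left, assumed to vary like the other groups. Without sham P56 library 2 the count after MI was 5 (10.4% of all genes).

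**Figure D2:**
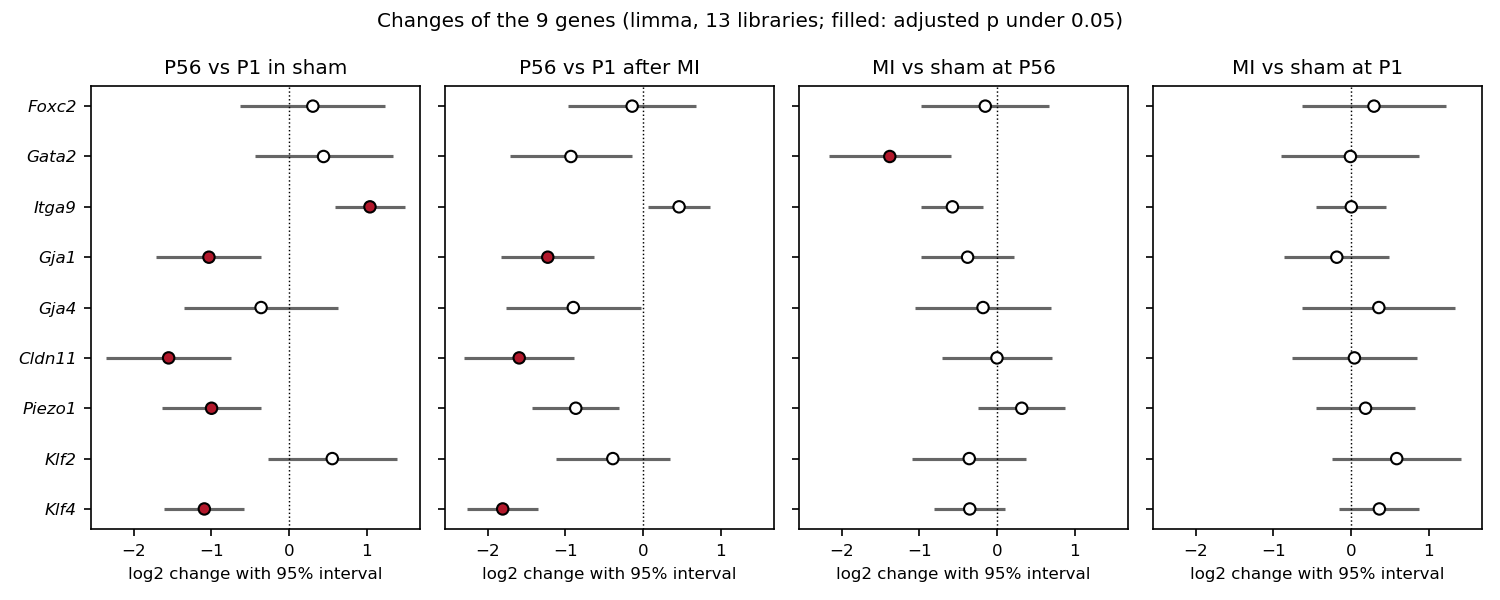
Log2 change of each gene (horizontal axis, limma, 13 libraries) with its 95% interval in 4 comparisons, filled where the adjusted p was under 0.05. Filled points number 5 and 3 in the age panels, 1 in the adult MI panel (Gata2) and 0 in the neonatal one.

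The sequences before the start sites of Klf2, Klf4 and Gja1 are shown because Klf4 and Gja1 were lower in P56 in both age comparisons and Klf2, the partner of Klf4, passed in neither. The 250 bases before each start site were read from RefSeq (GRCm38.p6) for 8 of the 9 genes. The Itga9 window, chr9:118711442-118711691, lies inside the gene and not before its deposited start. So does 1 of the 2 Gata2 windows, chr6:88198414-88198663. The stretches are printed 5′ to 3′ on the gene's strand, at chr8:72318812-72319032 (plus strand) for Klf2, chr4:55532476-55532725 (minus strand) for Klf4 and chr10:56377050-56377299 (plus strand) for Gja1, and the Klf2 stretch stops where the deposited coordinates place its start. Capitals mark a MEF2 match in Klf2 and, in Gja1, a GATA match and then an AP-1 match.

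Klf2: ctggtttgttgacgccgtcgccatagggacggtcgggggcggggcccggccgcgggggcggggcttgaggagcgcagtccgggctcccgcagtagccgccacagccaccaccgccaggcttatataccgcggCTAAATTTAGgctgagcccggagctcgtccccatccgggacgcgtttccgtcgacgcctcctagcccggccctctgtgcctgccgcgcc

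Klf4: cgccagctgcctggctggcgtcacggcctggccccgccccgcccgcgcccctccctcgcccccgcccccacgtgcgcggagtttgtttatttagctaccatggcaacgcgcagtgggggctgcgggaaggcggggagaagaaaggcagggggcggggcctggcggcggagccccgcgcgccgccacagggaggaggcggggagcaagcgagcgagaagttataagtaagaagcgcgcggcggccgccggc

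Gja1: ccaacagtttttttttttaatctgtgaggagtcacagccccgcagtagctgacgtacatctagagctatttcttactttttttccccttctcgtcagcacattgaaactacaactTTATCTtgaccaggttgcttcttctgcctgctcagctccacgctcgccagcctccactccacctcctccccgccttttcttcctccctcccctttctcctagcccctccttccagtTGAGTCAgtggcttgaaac

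Motifs were searched on both strands. The AP-1 motif was TGANTCA and that of forkhead factors was TGTTTAC. The motif of GATA factors was AGATAA and that of KLF factors was CCACCC, and the MEF2 and CArG box motifs are given by name. Positions are counted from the RefSeq start. Klf2 held a MEF2 match, CTAAATTTAG, from -118 to -109. It also held a KLF match, read as GGGTGG, from -19 to -14, beyond the stretch printed and inside the gene by its deposited coordinates. Gja1 held an AP-1 match, TGAGTCA, from -19 to -13 and a GATA match, read as TTATCT, from -135 to -130. The windows of Klf4, Piezo1, Cldn11 and Gja4, both windows of Gata2, and the one inside Itga9, held none of the 6 motifs. Of 32851 mouse promoter windows, 6.7% held the AP-1, 3.2% the forkhead, 10.0% the GATA, 28.1% the KLF, 2.9% the MEF2 and 1.5% the CArG box motif.

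Foxc2, the forkhead factor that valve formation requires, lies on chromosome 8 (GRCm38 positions 121116171 to 121118895, plus strand). It had 4.17, 2.98 and 1.38 in MI P56 libraries, against 6.50, 1.16, 2.84 and 3.39 in sham P56 libraries. It had 2.79, 3.19, 2.82 and 3.36 in MI P1 libraries, against 2.62 and 1.99 in sham P1 libraries. The adult libraries spanned a wider range than the neonatal ones, which lay inside it. No comparison passed the test, and the log2 change between sham P56 and sham P1 was 0.31 ± 0.45 (SE, adjusted p = 0.713, limma), and 0.58 (adjusted p = 0.568) with all 16 libraries.

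Gata2, a zinc-finger factor that acts upstream of Prox1 and Foxc2 in valve cells, lies on chromosome 6 (88193891 to 88207032, plus strand). It had 3.10, 3.47 and 3.52 in MI P56 libraries, against 9.21, 23.6, 6.57 and 7.71 in sham P56 libraries, and the groups did not overlap. The highest value was in sham P56 library 2, the fitted library with the fewest genes (14121). Neonatal values were 6.32, 6.06, 5.71 and 12.6 in MI P1 libraries, against 8.71 and 6.16 in sham P1 libraries. Gata2 was the member that passed the test between MI P56 and sham P56, where it fell by 1.38 ± 0.37 on the log2 scale (SE, adjusted p = 0.0473, limma). That call was lost at a pseudocount of 4 (adjusted p = 0.0697), without a filter on low values (0.0531), with the replicate block (0.0783), with only the adult groups fitted (0.144), and without any one of 11 of the 13 libraries (up to 0.153; it was kept without sham P56 library 3 or MI P1 library 5). With all 16 libraries the change was -0.86 (adjusted p = 0.822).

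Itga9, an integrin subunit that anchors valve leaflets to fibronectin, lies on chromosome 9 (118606690 to 118901003, plus strand). It had 128, 101 and 86.9 in MI P56 libraries, against 164, 161, 165 and 134 in sham P56 libraries. It had 72.6, 71.2, 78.3 and 78.7 in MI P1 libraries, against 84.4 and 66.7 in sham P1 libraries. The 4 sham P56 libraries were the highest of the 13, the MI P56 libraries came next without reaching them, and the neonatal groups overlapped. Itga9 was higher in sham P56 than in sham P1 by 1.04 ± 0.22 on the log2 scale (SE, adjusted p = 0.00274, limma), a call lost without sham P1 library 5 (0.0865) and with all 16 libraries (0.82, adjusted p = 0.197). After MI the age difference was 0.46 ± 0.19 (adjusted p = 0.185), and MI P56 differed from sham P56 by -0.57 ± 0.19 (adjusted p = 0.107).

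Gja1 and Gja4 encode connexins, the subunits of gap junction channels, and both are needed for valves. Gja1 lies on chromosome 10 (56377330 to 56402513, plus strand). It had 45.2, 25.4 and 18.2 in MI P56 libraries, against 53.2, 37.0, 27.7 and 31.4 in sham P56 libraries. It had 72.3, 57.3, 53.7 and 84.5 in MI P1 libraries, against 87.0 and 64.6 in sham P1 libraries. The highest adult library, sham P56 library 1, was just below the lowest neonatal one. Gja1 fell by 1.03 ± 0.32 in sham P56 relative to sham P1 (SE, log2, adjusted p = 0.0399, limma) and by 1.23 ± 0.28 in MI P56 relative to MI P1 (adjusted p = 0.0146). The sham call was lost in edgeR's quasi-likelihood test (adjusted p = 0.0527), with only the sham groups fitted (0.063) and without any one of 6 libraries (up to 0.298), and the call after MI without MI P56 library 2 (0.0747) or 3 (0.0899). With all 16 libraries the changes were -1.09 (adjusted p = 0.185) and -1.19 (adjusted p = 0.598).

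Gja4 lies on chromosome 4 (127311421 to 127314039, minus strand). It had 3.25, 1.29 and 2.12 in MI P56 libraries, against 2.58, 1.99, 2.91 and 2.74 in sham P56 libraries. It had 5.90, 2.69, 11.9 and 2.47 in MI P1 libraries, against 2.83 and 4.38 in sham P1 libraries. MI P1 library 3 was the highest of the 13, and MI P1 overlapped each other group. The change between MI P56 and MI P1 was -0.90 ± 0.42 (SE, log2, adjusted p = 0.254, limma), and -0.49 (adjusted p = 0.995) with all 16 libraries.

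Cldn11, a claudin of tight junctions that is enriched in valve endothelium, lies on chromosome 3 (31149920 to 31164324, plus strand). It had 0.0980, 0.0216 and 0.195 in MI P56 libraries, against 0.179, 0, 0.217 and 0.0340 in sham P56 libraries. It had 1.98, 1.60, 2.52 and 3.49 in MI P1 libraries, against 4.58 and 0.869 in sham P1 libraries. These adult values stand for 0 to 12 reads and the neonatal ones for 24 to 217 reads per library. No adult value reached 1, so Cldn11 entered the filtered test only through P1 libraries, the ones where it was higher. Cldn11 fell by 1.55 ± 0.38 in sham P56 relative to sham P1 (SE, log2(value + 1), adjusted p = 0.0103, limma) and by 1.59 ± 0.34 in MI P56 relative to MI P1 (adjusted p = 0.00825). The added 1 understates these changes; edgeR on the recovered reads gave -4.64 (adjusted p = 0.00748) and -4.46 (adjusted p = 0.0299). With all 16 libraries it was the gene of the 9 that still passed between sham groups (-1.97 ± 0.40, adjusted p = 0.00753); after MI it did not (-1.63, adjusted p = 0.131). Without sham P1 library 3 the sham change was -0.76 (adjusted p = 0.319).

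Piezo1, a channel opened by stretch of the membrane that valve formation requires, lies on chromosome 8 (122481698 to 122551329, minus strand). It had 24.7, 21.2 and 23.9 in MI P56 libraries, against 27.3, 9.99, 20.2 and 20.7 in sham P56 libraries. It had 53.3, 41.7, 35.3 and 43.9 in MI P1 libraries, against 38.7 and 36.9 in sham P1 libraries. Sham P56 library 2, the fitted library with the fewest genes, was lowest. Piezo1 fell by 1.00 ± 0.30 in sham P56 relative to sham P1 (SE, log2, adjusted p = 0.0341, limma), and the call was lost without sham P1 library 3 (0.183) or 5 (0.18), with the replicate block (0.0557) and with only the sham groups fitted (0.136). Between MI P56 and MI P1 it differed by -0.87 ± 0.27 (adjusted p = 0.0666), and it passed in DESeq2 (0.0276), with only the MI groups fitted (0.0128) and without sham P56 library 1 (0.0451) or 2 (0.00597). Adding the 3 sparse libraries gave a sham change of -0.50 (adjusted p = 0.778), where sham P1 library 1 had 376 and sham P1 library 2 had 0.

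Klf2, a factor induced by flow, lies on chromosome 8 (72319033 to 72321656, plus strand). It had 12.3, 12.0 and 6.20 in MI P56 libraries, against 21.0, 16.6, 8.32 and 8.98 in sham P56 libraries. It had 15.7, 12.7, 9.07 and 16 in MI P1 libraries, against 12.0 and 5.76 in sham P1 libraries. Values ranged widely within each group and all 4 groups overlapped. The log2 change between sham P56 and sham P1 was 0.56 ± 0.40 (SE, adjusted p = 0.4001, limma) and between MI P56 and MI P1 -0.39 ± 0.35 (adjusted p = 0.627). With all 16 libraries the sham change turned sign, to -0.80 (adjusted p = 0.464), and that after MI was -0.43 (adjusted p = 0.995).

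Klf4, its partner with overlapping targets, lies on chromosome 4 (55527143 to 55532466, minus strand). It had 31.3, 25.1 and 25.2 in MI P56 libraries, against 39.1, 37.3, 26.4 and 37.9 in sham P56 libraries. It had 95.8, 94.4, 77.2 and 126 in MI P1 libraries, against 84.3 and 66.8 in sham P1 libraries. The lowest neonatal library was well above the highest adult one. Klf4 fell by 1.81 ± 0.22 in MI P56 relative to MI P1 (SE, log2, adjusted p = 5.6e-05, limma), a call kept without any one library (at most 0.000874). It fell by 1.09 ± 0.25 in sham P56 relative to sham P1 (adjusted p = 0.00531), a call lost without sham P1 library 3 (0.104). Adding the 3 sparse libraries gave changes of -1.43 (adjusted p = 0.722) and -2.29 (adjusted p = 0.0503), where MI P56 library 5 had 77.6 and sham P1 library 2 had 1502 from 372 reads.

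Ratios within a library do not depend on how libraries were scaled, and the pairs were chosen after their values were seen, so they are described without a test. The ratio of the Klf4 to the Klf2 value was 2.09 to 4.05 in MI P56 and 1.87 to 4.22 in sham P56 libraries, and it was 6.11 to 8.51 in MI P1 and 7.04 to 11.6 in sham P1 libraries. All P56 libraries were below all P1 libraries. The ratio of the Itga9 to the Klf4 value was 3.46 to 4.08 in MI P56 and 3.55 to 6.24 in sham P56 libraries, against 0.624 to 1.01 in MI P1 and 0.997 to 1.00 in sham P1 libraries.

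**Figure D3:**
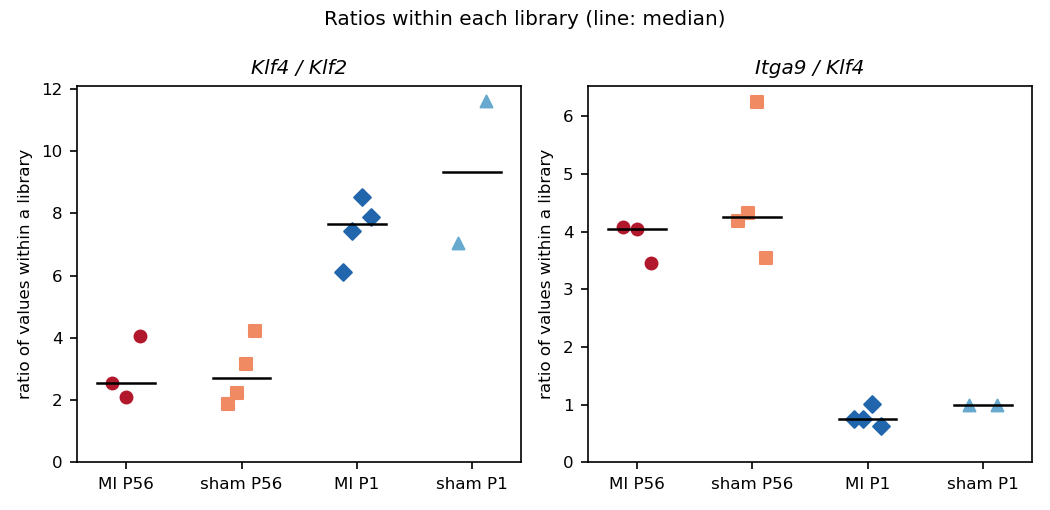
Ratio of Klf4 to Klf2 and of Itga9 to Klf4 within each of 13 libraries (points; line: median of the group). In the left panel the P56 libraries lie at or below 4.22 and the P1 libraries at or above 6.11, and in the right panel the P56 libraries lie at or above 3.46.

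Genes that respond at once to cutting and digestion moved with age as well. Of 20 immediate early and stress genes (among them Fos, Jun, Egr1 and Atf3), 14 passed as lower in sham P56 than in sham P1 (median log2 change -2.07, against 0.0016 over all genes) and 13 as lower in MI P56 than in MI P1 (median -1.56, against 0.0065). In the fit of all 16 libraries these counts were 9 and 1. Of the 20 genes, 6 also passed as higher in MI P56 than in sham P56, which had the same digestion time. The median log2 change there was 0.67, against 0.0078 over all genes, and 0 passed in the fit of all 16 libraries. The summed value of the 20 genes was 611 to 842 in MI P56, 409 to 678 in sham P56, 1647 to 3144 in MI P1 and 1984 to 2141 in sham P1 libraries. Over the 13 libraries, Klf4 correlated with this sum at r = 0.857, Piezo1 at 0.83, Cldn11 at 0.825, Gja1 at 0.741 and Itga9 at -0.858. Within the 7 P56 libraries the Klf4 correlation was -0.139 and within the 6 P1 libraries -0.369; for Gja1 it was 0.207 and -0.869, for Piezo1 0.406 and -0.0786, for Cldn11 0.142 and -0.404, and for Itga9 -0.433 and -0.29. All libraries share their scaling between both measures. The part of digestion in the age differences was not tested, and age and digestion cannot be told apart.

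**Figure D4:**
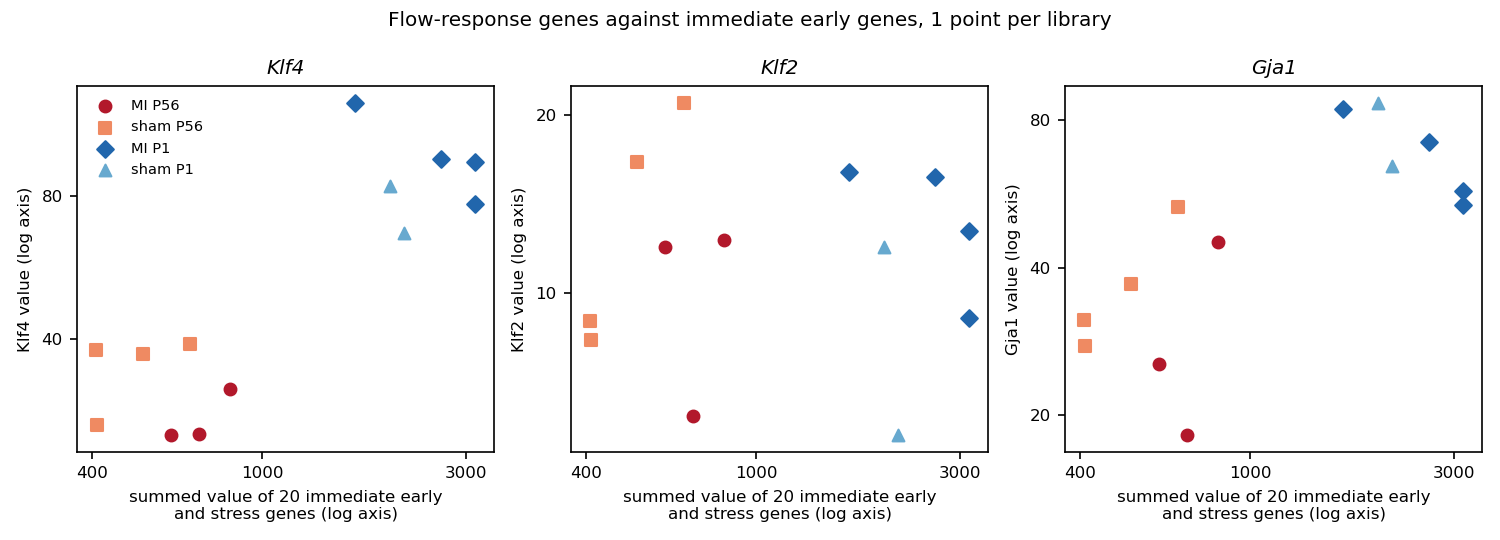
Value of Klf4, Klf2 and Gja1 (vertical log axes) against the summed value of 20 immediate early and stress genes (horizontal log axis), 1 point for each of 13 libraries. Klf4 and Gja1 fall into a lower P56 and a higher P1 cloud, with r for Klf4 of -0.139 within P56 and -0.369 within P1, whereas Klf2 shows no such split.

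Markers of other cells moved with age too. Between sham P56 and sham P1, 8 of 8 cardiomyocyte markers and 5 of 7 blood capillary markers passed as higher, and 3 of 7 fibroblast markers as lower, while 0 of 6 lymphatic markers passed. Pan-endothelial (3 of 7), arterial (1 of 6), and pericyte and smooth muscle markers (3 of 6 tested) also passed as higher. Endocardial markers went both ways (2 of 4 higher and 1 lower), and 1 of 5 tested macrophage markers passed as lower. Between MI P56 and MI P1, 1 of 8 cardiomyocyte, 0 of 7 blood capillary, 0 of 7 fibroblast and 0 of 6 lymphatic markers passed. Passing as lower there were 2 of 7 pan-endothelial (Cdh5 and Tie1), 1 of 6 arterial (Hey1) and 1 of 4 endocardial (Hapln1) markers. So did 1 of 5 mesothelial markers (Wt1) and the 1 tested mast cell marker (Kit), and 1 of 5 tested macrophage markers (Itgam) passed as higher. In the fit of all 16 libraries the sham counts were 7 cardiomyocyte, 3 blood capillary and 2 fibroblast markers. They were 1 each for the pan-endothelial, arterial, and pericyte and smooth muscle lists, 2 endocardial (1 higher and 1 lower) and 0 macrophage. After MI that fit gave 0 for each list named here. Summed cardiomyocyte markers were 320 to 565 in MI P56, 1269 to 2305 in sham P56, 99.97 to 339 in MI P1 and 147 to 223 in sham P1 libraries, and none of the 8 was at 0 in a whole group. Itga9 correlated with that sum at r = 0.915 over the 13 libraries and 0.917 within the 7 P56 libraries, but at -0.352 within the 6 P1 libraries. Within the P56 libraries it correlated about as strongly with the summed lymphatic (0.902), pan-endothelial (0.892) and macrophage (-0.929) markers. For these 3 sums r was 0.753, 0.225 and -0.34 within the P1 libraries, and 0.334, 0.435 and -0.525 over the 13. The part of other cells in the Itga9 difference was not tested.

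After adult MI, 1 of the 9 genes passed (Gata2, above), where 3.42% of all 13033 genes did (446 genes, 307 higher and 139 lower in MI P56). Of the 9, 2 (Gata2 and Itga9) had all MI P56 libraries below all sham P56 libraries, where 5.79% of all genes did. In the fit of all 16 libraries 0 of the 9 passed, where 0.174% of all genes did. Markers moved in the same comparison: 4 of 7 pan-endothelial, 4 of 7 blood capillary and 8 of 8 cardiomyocyte markers passed as lower, 3 of 7 fibroblast and 2 of 5 tested macrophage markers as higher, and 0 of 6 lymphatic markers passed. In the 16-library fit 0 pan-endothelial, 0 blood capillary and 1 cardiomyocyte marker passed as lower, and 3 fibroblast and 1 macrophage markers as higher. The summed pan-endothelial value was 240 to 397 in MI P56 and 474 to 572 in sham P56 libraries. Within the 7 P56 libraries Gata2 correlated with the summed Schwann cell and myelin markers at r = 0.917 and the cardiomyocyte ones at 0.846. For blood capillary, pan-endothelial and lymphatic markers r was 0.81, 0.639 and 0.469. Within the 6 P1 libraries these 5 values were, in the same order, -0.747, -0.913, -0.0203, -0.136 and 0.654. The part of other cells in the Gata2 and Itga9 values was not tested.

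After neonatal MI, 0 of the 9 genes passed, where 0% of all 13033 genes did (485 at an unadjusted p under 0.05 in limma, 0 called by edgeR and 7 by DESeq2). Klf2 differed by 0.59 ± 0.40 (SE, log2) and Klf4 by 0.36 ± 0.25, with 95% intervals from -0.24 to 1.42 and from -0.15 to 0.88 (adjusted p = 0.99987 each, limma). Adding the 3 sparse libraries turned both signs, to -0.77 for Klf2 (adjusted p = 0.555) and -0.84 for Klf4 (0.528) in limma, and to -1.87 and -2.16 in edgeR. The response to MI differed between ages for 0 of the 9 genes, where 0.483% of all genes passed (63 genes). Gata2 came to -1.37 ± 0.56 (adjusted p = 0.366), Klf2 to -0.94 ± 0.53 (0.553) and Klf4 to -0.72 ± 0.33 (0.425) in that difference. In the 16-library fit Gata2 came to -1.55 (0.5497), while the others turned sign, to 0.37 for Klf2 (0.886) and 0.86 for Klf4 (0.714). The comparisons share sham and MI groups, so these values are not independent of those above.

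Other genes of valve and flow biology, in 8 lists of 85 symbols (84 in the table, 83 tested), were described by their counts. The lists were drawn up with earlier results of these data known, so the shares below are a description. In the sham age comparison 11 passed as higher and 7 as lower in P56 (21.7% of the 83, beside 13.2% of all genes). After MI 4 passed as higher and 11 as lower in P56 (18.1%, beside 5.35%). After adult MI 8 passed as higher and 3 as lower (13.3%, beside 3.42%), and after neonatal MI none did, in limma. In the fit of all 16 libraries 1 passed as higher and 3 as lower in the sham age comparison, 0 after MI with age, and 1 as higher after adult MI.

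Among valve transcription factors, Nfatc1, which valve endothelium expresses, fell by 1.62 in sham P56 relative to sham P1 (log2, adjusted p = 0.00708, limma) and by 1.53 in MI P56 relative to MI P1 (adjusted p = 0.0104). In the 16-library fit these were -0.49 (adjusted p = 0.581) and -1.41 (adjusted p = 0.505). Nfatc1 was also the gene whose pattern was most like Piezo1 over the 13 libraries (r = 0.981). Among valve matrix genes, 4 of 10 passed as higher in MI P56 than in sham P56, and 1 of 10 with all 16 libraries. Fn1, fibronectin and the ligand of integrin alpha 9, rose by 2.69 there (adjusted p = 8.3e-05) and was lower by 2.80 in sham P56 than in sham P1 (log2 change -2.80, adjusted p = 4.2e-05), and both calls held with all 16 libraries (adjusted p = 0.00168 and 0.000138). Of 7 fibroblast markers, 3 passed as higher after adult MI and 3 as lower in sham P56 than in sham P1, and their part in the Fn1 values was not tested.

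Of 9 genes of the kinase cascade from MEKK3 through ERK5 to MEF2, which lies upstream of Klf2 and Klf4, none passed in any of the 5 comparisons in limma. Of 9 tested Klf targets and flow readouts, 3 were higher and 1 lower in sham P56 than in sham P1, and 2 were higher (Thbd and Timp3) and 3 lower (Cav1, Klf6 and Klf10) in MI P56 than in MI P1. Klf6 is also 1 of the 20 immediate early and stress genes, and 1 of the 13 of them that passed as lower after MI. Thbd (thrombomodulin, an anticoagulant receptor) was higher in sham P56 than in sham P1 by 1.63 (adjusted p = 0.000699, limma) and in MI P56 than in MI P1 by 1.01 (adjusted p = 0.0225), opposite in sign to Klf4. The call after MI was lost in 7 of 25 alternatives, and with all 16 libraries the changes were 0.84 (adjusted p = 0.281) and 0.57 (adjusted p = 0.978). Klf10, a zinc-finger factor of the same family, had the sign of Klf4 and fell by 1.57 in MI P56 relative to MI P1 (adjusted p = 0.0169; -1.59 and 0.279 with all 16 libraries). Hmox1, the haem-degrading enzyme, was lower in sham P56 than in sham P1 (log2 change -2.76, adjusted p = 0.000193; 0.0377 with all 16 libraries). Timp3, a metalloproteinase inhibitor, was higher in MI P56 than in MI P1 by 0.79 (adjusted p = 0.0419), a call lost in 11 of 25 alternatives, among them edgeR, the replicate block (0.0995), 7 left-out libraries (up to 0.229) and all 16 libraries (0.962). Its pattern was the most like that of Itga9 (r = 0.973).

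Among YAP and TAZ readouts, Cyr61 and Ctgf, matricellular proteins, rose after adult MI by 1.93 (adjusted p = 0.0022, limma) and 1.98 (adjusted p = 0.00415); with all 16 libraries neither passed (adjusted p = 0.104 and 0.758). Cyr61 was lower in sham P56 than in sham P1 (log2 change -2.49, adjusted p = 0.000169; 0.00283 with all 16 libraries). Ankrd1, an ankyrin-repeat protein, was higher in sham P56 than in sham P1 by 1.96 (adjusted p = 0.0161, and 0.49 and 0.8099 with all 16 libraries). In that comparison 8 of 8 cardiomyocyte markers passed as higher, and their part in the Ankrd1 values was not tested. Among mechanosensors, Sdc4, a syndecan, rose after adult MI by 1.81 (adjusted p = 0.0128; 0.352 with all 16 libraries). Tek and Tie1, the angiopoietin receptor and its partner, fell after adult MI by 0.80 each (adjusted p = 0.0304 and 0.0469), and the junction cadherin Cdh5 fell by 0.73 (adjusted p = 0.0447). These 3 are also pan-endothelial markers, and without 1 library Tie1 lost its call in 12 of 13 cases, Cdh5 in 10 and Tek in 5, and all 3 lost it with the replicate block, with only the adult groups fitted and with all 16 libraries (adjusted p = 0.449 for Tek, 0.733 for Tie1 and 0.883 for Cdh5). Of the other genes that the size rule names, Nrp1, a semaphorin receptor, was higher by 1.67 (adjusted p = 0.00304, limma) and Dtx1, a Notch pathway ligase, by 1.41 (adjusted p = 0.0126) in sham P56 than in sham P1. In MI P56 relative to MI P1, Pkd2, a polycystin channel, was higher by 0.92 (adjusted p = 0.00828), Nfatc2 fell by 1.62 (adjusted p = 0.0126) and Angpt2, a Tek ligand, fell by 1.21 (adjusted p = 0.0362). None of these 5 passed in the 16-library fit, where Dtx1 came to -0.55 (adjusted p = 0.684). Ctgf was higher in MI P56 than in MI P1 by 2.37 (adjusted p = 0.000627; 0.791 with all 16 libraries).

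**Figure D5:**
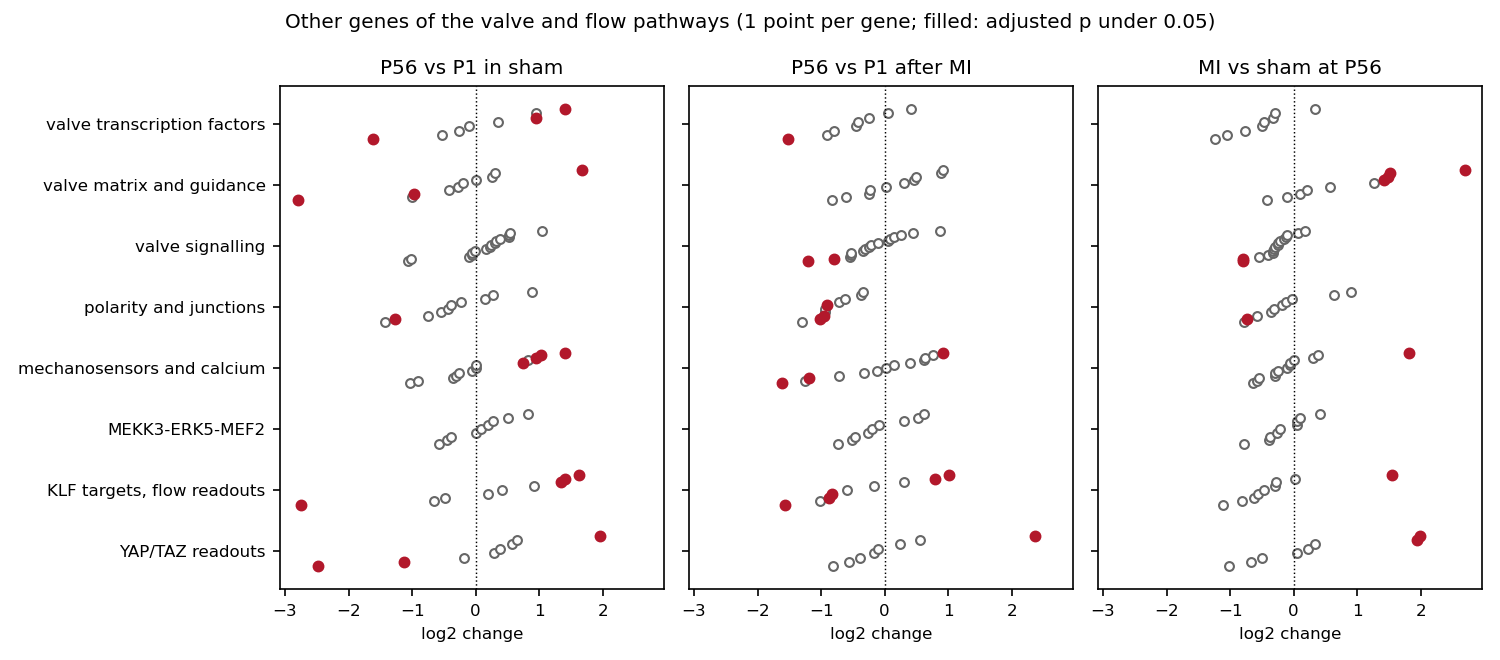
Log2 change (horizontal axis, limma, 13 libraries) of each tested gene in 8 lists of valve and flow genes, filled where the adjusted p was under 0.05, in 3 comparisons. Filled points number 18, 15 and 11 from left to right, and none lies in the MEKK3-ERK5-MEF2 row.

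The genes most like each member over the 13 libraries, by Pearson r of log2(value + 1), were Micall1 for Foxc2 (0.901), Ywhaq for Gata2 (0.92), Ermp1 for Gja1 (0.932) and Qrich1 for Gja4 (0.847). Klf4 was most like Nfkbia (0.97) and Maff (0.966), and Klf2 most like F11r (0.835). Cldn11 was most like Bcl2l11 (0.961 over all, 0.662 within the 7 P56 libraries) and Plk2 (0.946 over all, -0.0931 within them). Both ages are pooled in these r values, which are a description.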

How the data were processed

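RNA was sequenced from sorted cardiac lymphatic endothelial cells in 16 libraries of 4 groups. The tools named, per the submitters' processing notes, are STAR, HTSeq, Trimmomatic and edgeR, and the build is mm10 (GRCm38). Versions and settings are not given in the sources used here. The deposited values (signal, named CPM by the authors) proved to be read numbers multiplied by a factor particular to each library: dividing by it gave a whole number, to 0.01 read, for 100% of values, and these reads served as depth and for the count tests. The columns did not share 1 sum, so they are no plain CPM, and the design's test on a log scale was kept. The 4 columns numbered 5 match no label number; their group is in the column name.

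Libraries with a read on at least 10000 genes (13) were fitted with limma 3.58.1 (R 4.3.3, limma-trend, 4 groups, log2(value + 1)) on genes with a value of 1 or more in at least 4 libraries, with Benjamini-Hochberg adjustment over all genes. Intervals are 95%. Alternatives were all 16 libraries, other filters, pseudocounts and scalings, edgeR 4.0.16, DESeq2 1.42.0, only the groups compared, a replicate block and each library left out. The script was tested on simulated data. Members and lists were chosen with earlier results of these data known. Named genes are all members, up to 4 called genes of the valve and flow lists per comparison and direction by size of change, and for each member the genes with the highest r. Exon lengths and strands came from GENCODE M21, which holds the same coordinates. Whether HTSeq counted by strand is not given in the sources used here, so overlapping antisense reads cannot be told apart.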

Additional observations from a re-analysis of the deposited data

Results flagged for a closer look

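In 9 of 36 groups of 4 libraries (all 16 libraries), 1 library lay far from the other 3 by Dixon's criterion, which chance gives in about 5% of groups. Of these 9 cases, 5 came from the 3 libraries that were not fitted. These were Gata2 (17.3) and Klf4 (77.6) in MI P56 library 5, Piezo1 (376) and Klf2 (147) in sham P1 library 1, and Klf4 (1502) in sham P1 library 2. The Gata2 value in MI P56 library 5 stands for 4 reads. The other 4 were in fitted libraries: Gata2 was highest in sham P56 library 2 (23.6) and in MI P1 library 5 (12.6), Itga9 was lowest in sham P56 library 5 (134), and Klf4 was lowest in sham P56 library 3 (26.4).

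The response of Fn1 to MI differed between the ages by 2.19 on the log2 scale (MI against sham at P56 minus the same at P1, adjusted p = 0.048, limma). Fn1 averaged 846 ± 448 in MI P56 (SD, n = 3) and 123 ± 37.1 in sham P56 (n = 4), and 1222 ± 349 in MI P1 (n = 4) and 839 ± 113 in sham P1 (n = 2). The call was lost in 19 of 24 alternatives, with adjusted p from 0.00184 to 0.411 over all of them.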

How the results depend on the processing

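The changes of Klf4, Cldn11, Gja1, Piezo1 and Itga9 between the ages, and of Gata2 after adult MI, kept their direction under every alternative run. Of 25 alternatives each, the call was lost in 17 for Gata2 after adult MI, and in the sham age comparison in 10 for Gja1, 5 for Piezo1, 3 for Itga9 and 2 for Klf4. For Cldn11 it was lost in 1 of 24. With age after MI it was lost in 4 for Gja1 and 2 for Klf4, and in 2 of 24 for Cldn11. Genes called after adult MI numbered 866 in DESeq2, 199 with only the 2 groups compared, 23 with all 16 libraries and 39 with all 16 in edgeR. After neonatal MI they numbered 7 in DESeq2, 7 with only the 2 groups, 2 with a pseudocount of 0.25, 2 with quantile normalization and 1 with a minimum value of 5. For the difference between the responses they numbered 324 in DESeq2, 34 with a pseudocount of 4, 8 with the replicate block, and 1 with all 16 libraries in limma and in edgeR. For the sham age comparison they numbered 518 with all 16 libraries and 1023 with only the 2 groups, and after MI 14 with all 16 in limma and in edgeR and 1215 with only the 2 groups. The fit of all 16 libraries with edgeR was chosen after seeing the data.

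The count of the 9 genes after adult MI was 0 with all 16 libraries in limma and in edgeR, without a filter, with only the 2 groups, with a pseudocount of 4 and with the replicate block. In the sham age comparison it was 1 with all 16 libraries, 3 with all 16 in edgeR and 3 with only the 2 groups, and after MI 0 with all 16 in limma and in edgeR. Leaving out 1 library gave 143 to 645 genes called after adult MI (143 without MI P56 library 3), 0 to 2 after neonatal MI, 1 to 228 for the difference between responses (1 without sham P1 library 5, 228 without sham P56 library 2), 644 to 2270 for age in sham (644 without sham P1 library 5 and 804 without library 3) and 317 to 1344 for age after MI (317 without MI P56 library 2 and 1344 without sham P56 library 2). It gave 0 to 1 of the 9 genes after adult MI, 1 to 5 for age in sham and 2 to 5 for age after MI. The cause was not tested.

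Signs turned only for values that had not passed the test, and for Dtx1 and Ankrd1. Leaving out 1 library gave, after neonatal MI, -0.75 to 0.83 for Cldn11, -0.25 to 0.21 for Gata2, -0.40 to 0.028 for Gja1, -0.026 to 0.60 for Gja4 and -0.16 to 0.17 for Itga9. After adult MI it gave -0.060 to 0.054 for Cldn11, -0.45 to 0.16 for Foxc2 and -0.40 to 0.042 for Gja4. For Foxc2 with age after MI it gave -0.39 to 0.17. For the difference between responses it gave -0.83 to 0.74 for Cldn11, -0.54 to 0.092 for Gja1 and -0.14 to 0.31 for Piezo1.

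With all 16 libraries, values after neonatal MI were -0.38 for Cldn11, 0.69 for Gata2, -0.22 for Itga9, -0.77 for Klf2 and -0.84 for Klf4, and after adult MI 0.23 for Gja4 and 0.021 for Klf4. In sham with age they were 0.73 for Gja4, -0.80 for Klf2 and -0.55 for Dtx1. Differences between responses were 0.34 for Cldn11, 0.37 for Klf2, 0.86 for Klf4 and -0.47 for Piezo1. With all 16 in edgeR, values after neonatal MI were -0.64 for Cldn11, 0.50 for Gata2, -0.26 for Itga9, -1.87 for Klf2, -2.16 for Klf4 and -1.42 for Piezo1, and after adult MI 0.076 for Gja4 and 0.094 for Klf4. In sham with age they were 0.17 for Gja4, -1.82 for Klf2, -2.13 for Dtx1 and -3.10 for Ankrd1. Differences between responses were 0.60 for Cldn11, 0.33 for Gja1, 1.41 for Klf2 and 2.25 for Klf4. With the 3 sparse libraries the median of all genes moved by up to -0.504 on the log2 scale (interaction).

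After neonatal MI with 13 libraries, Cldn11 came to -0.21 in DESeq2, -0.21 in edgeR, -0.023 at a pseudocount of 4 and -0.0075 after quantile normalization. Gata2 came to 0.023 in DESeq2, 0.016 in edgeR and 0.0017 at a pseudocount of 4, and Itga9 to -0.032 in DESeq2, -0.037 in edgeR, -0.024 with median-of-ratios scaling and -0.053 with the replicate block. For Cldn11 the difference between responses was 0.17 in DESeq2, 0.18 in edgeR and 0.023 at a pseudocount of 4, and its change after adult MI 0.010 at a pseudocount of 0.25.

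Of 15 pairs of libraries with the same number, 1 correlated over 0.1 (median -0.0523), and 10 of 47 pairs of different numbers did. Each group was centred first, so the 2 sham P1 libraries mirror each other (0.32 and -0.32 with MI P1 library 5). With groups this small the pairs cannot exclude a deviation shared by libraries of the same number. The replicate block gave 331 genes after adult MI, 1215 for age in sham and 551 for age after MI, and 4 and 3 of the 9 genes with age. Depth limits Cldn11 in adults (0 to 12 reads per library).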
